A study of Homo sapiens with 18 samples.

Results

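The genes of the eukaryotic translation initiation factors eIF1, eIF2, eIF2B, eIF3, eIF4, eIF5 and eIF6 were followed, together with the eIF4E-binding proteins EIF4EBP1 and EIF4EBP2. They were taken by gene symbol from a list of 43 names, and 42 of the 43 had a row among the 37096 named genes of the deposited table. The RNA level of EIF4A1 was not analysed here. All 42 were abundant enough to be tested, among 17755 genes tested in all. Poly-A RNA had been sequenced from wild-type HEK293T cells, an embryonic kidney line that takes up plasmids readily. Cells were transfected with MethionaseNLS, a nuclear-targeted enzyme that breaks down methionine, or with the empty vector pLEX, and collected at 12 h or 24 h. The 6 groups were methionase and vector at 12 h in DMSO, methionase and vector at 24 h in DMSO, and methionase and vector at 24 h with Vps34-IN1, an inhibitor of the lipid kinase VPS34, given at 5 µM for 12 h. Each group held 3 libraries, 18 in all. No group was labelled as carrying an inactive methionase, so the activity of the enzyme and the presence of a foreign nuclear protein cannot be told apart, and how long DMSO was given in each group is not stated. The labels do not say that replicates were separate cultures, so a p-value measures the spread between these libraries, which may be technical.

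Translation of most messenger RNAs starts when the small ribosomal subunit, carrying the initiator methionine tRNA, is recruited to the capped end of the RNA and scans to a start codon. The eIF2 complex delivers that tRNA with GTP, eIF1 and eIF1A hold the scanning subunit open, eIF3 is the large scaffold, and eIF4E, eIF4G and eIF4A recognise the cap and unwind the leader. EIF5 encodes the protein that makes eIF2 hydrolyse its GTP at the start codon, after which eIF5B joins the large subunit and eIF2B recharges eIF2 for another round. When amino acids run short, phosphorylation of eIF2 turns it into an inhibitor of eIF2B, and release of 4E-BPs from mTORC1 control blocks eIF4E.

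The libraries held 18278586 to 20825232 reads, and the 42 genes together took between 1.31% and 1.45% of them. A normalised read below is a read count, recovered from the deposited values, divided by the size factor of its library. Differences between groups are in log2 units of the deposited variance-stabilised values, with their standard error, and come out too small for genes with few reads. Called means that limma gave a p below 0.05 after Benjamini-Hochberg adjustment over the 17755 genes tested. In bulk RNA, fewer cells of a kind and less RNA per cell cannot be told apart. Of 8 markers of HEK293 cells, 6 had at least 10 normalised reads in every library. Of 6 markers of other cell types in the table, COL1A1 and COL3A1 did, and these 6 markers summed to between 445 and 727 normalised reads. Reads on the mitochondrial ribosomal RNAs, read here as a sign of RNA quality, were 0.938% to 2.01% in methionase and 0.480% to 0.657% in vector libraries at 24 h in DMSO, and 1.89% to 2.47% in methionase and 0.985% to 1.35% in vector libraries with Vps34-IN1. At 12 h they were 0.324% to 0.383% in methionase and 0.206% to 0.292% in vector libraries. Histone transcripts, which mostly lack a poly-A tail, took 0.0618% to 0.0952% of reads in methionase and 0.0158% to 0.0171% in vector libraries at 24 h in DMSO, and 0.159% to 0.175% in methionase and 0.0684% to 0.0842% in vector libraries with Vps34-IN1. Both shares moved with methionase and with the drug, as many results below did, and their part in those results was not tested.

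EIF5 stood apart from the other initiation factor genes. It was singled out with earlier results of these data known, so its place among them is a description. At 24 h in DMSO, EIF5 had 1655, 1573 and 1609 normalised reads in the methionase libraries, against 3037, 3342 and 3588 in the vector libraries. Every methionase library lay below every vector library, and the mean fell by 51.5%, a log2 difference of -1.002 ± 0.10 (adjusted p = 2.19e-08). Among 17755 genes, 36 had a lower log2 difference, and none of these was another initiation factor gene. With Vps34-IN1, EIF5 had 2033, 2237 and 3038 normalised reads in the methionase libraries, against 3677, 3782 and 3505 in the vector libraries. The groups again did not overlap, and the log2 difference was -0.59 ± 0.10 (adjusted p = 3.56e-05). At 12 h, EIF5 had 4520.2, 4962 and 5134 normalised reads in the methionase libraries and 4264, 4808 and 4905 in the vector libraries. These ranges overlapped, and the log2 difference of 0.06 ± 0.10 was not called (adjusted p = 0.771).

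A pair of interaction tests bore on EIF5. The methionase difference at 24 h minus that at 12 h was -1.07 ± 0.14 on the log2 scale (adjusted p = 1.85e-05), and 2 of the 17755 genes had a lower value. The methionase difference with Vps34-IN1 exceeded that in DMSO by 0.41 ± 0.14 (adjusted p = 0.0299), so the loss of EIF5 reads was smaller in the presence of the drug. This second result lay close to the threshold. It was not called without methionase 24 h DMSO replicate 2 or methionase 24 h Vps34-IN1 replicate 3 or vector 24 h DMSO replicate 2 or 3 or vector 24 h Vps34-IN1 replicate 3 (log2 difference 0.25 to 0.41, adjusted p = 0.0538 to 0.083), with no filter on low values (adjusted p = 0.0771) or in a fit of only the groups compared (adjusted p = 0.0534). EIF5 also differed between times and with the drug, and other differences between 12 h and 24 h libraries cannot be told apart from time. At 24 h compared with 12 h it fell by 66.9% in methionase cells (log2 difference -1.54 ± 0.10, adjusted p = 3.97e-11), and no tested gene had a lower log2 difference in that comparison. In vector cells it fell by 28.7% over the same time (log2 difference -0.48 ± 0.10, adjusted p = 0.00239), with 126 genes lower. Vps34-IN1 raised EIF5 in methionase cells, by 0.55 ± 0.10 compared with DMSO (adjusted p = 0.000743), and all 3 treated libraries lay above all 3 DMSO libraries. In vector cells the drug difference of 0.14 ± 0.10 was not called (adjusted p = 0.27). The highest treated methionase library, replicate 3, had 3038 normalised reads. Without it the drug difference in methionase cells was 0.39 and still called.

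**Figure D1:**
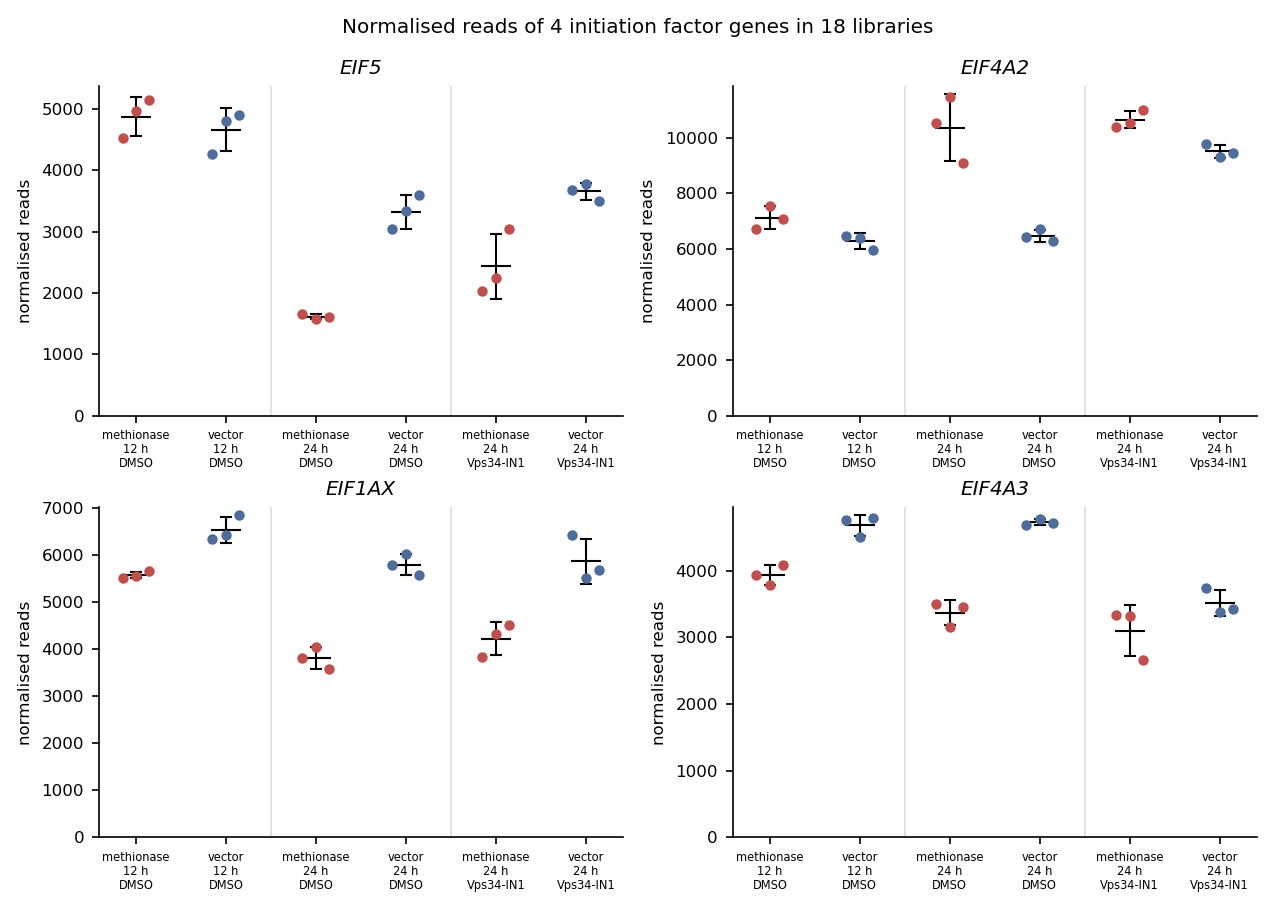
Normalised reads (vertical axes, from 0) of EIF5, EIF4A2, EIF1AX and EIF4A3 in each of 18 libraries (points), grouped by construct, time and treatment on the horizontal axes, methionase in red and vector in blue, with the mean and SD of 3 libraries as black bars. EIF5 is lowest in methionase cells at 24 h in DMSO, where its libraries hold 1573 to 1655 normalised reads, and EIF4A2 is higher in every methionase library at 24 h than in every vector DMSO library.

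From the highest mean to the lowest, EIF5 ran from methionase and vector at 12 h, through vector at 24 h with Vps34-IN1 and in DMSO, to methionase at 24 h with Vps34-IN1 and in DMSO. The first pair of groups did not differ beyond its spread, and neither did the vector pair at 24 h, whose tests are given above. Methionase with Vps34-IN1 and vector in DMSO at 24 h were not compared by a test, and their ranges met near 3038 normalised reads, the highest methionase value with the drug, and 3037, the lowest vector value in DMSO. Per kilobase of annotated exon, EIF5 had 239 normalised reads in methionase and 493 in vector cells at 24 h in DMSO. On that scale the vector level of EIF5 was close to those of the eIF2B subunit genes, which ranged from 304 to 465, and of EIF5B at 492, far below EIF5A at 8772. EIF5A, whose protein works in elongation and termination despite its name, had the highest level of all 42 genes in vector cells at 24 h in DMSO. Its low-abundance paralog EIF5A2, at 28.6, had the lowest. In vector cells with Vps34-IN1, EIF1, at 10710, lay above EIF5A, at 9547. Exon length joined all exons of the GENCODE basic annotation, and the order of genes on this scale rests on it.

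EIF5 lies on chromosome 14 at 103334237 to 103345025 of GRCh38.p14, on the forward strand. RefSeq gives 2 start sites for it, of which the second lies within the gene. The 250 bases before each are printed because EIF5 had the largest methionase difference of the 42 genes at 24 h in DMSO. They are given by RefSeq on GRCh38.p14 and written 5′ to 3′. In the first stretch the capitals are the CCAAT box, and in the second they are the AP-1 site TGANTCA, each searched on both strands.
EIF5 first start site, chr14:103333987-103334236, forward strand: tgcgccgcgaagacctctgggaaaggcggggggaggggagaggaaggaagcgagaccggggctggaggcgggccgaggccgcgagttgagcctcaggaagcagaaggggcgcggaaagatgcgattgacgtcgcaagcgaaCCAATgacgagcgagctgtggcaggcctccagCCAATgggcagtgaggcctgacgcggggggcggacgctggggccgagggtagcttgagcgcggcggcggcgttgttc
EIF5 second start site, chr14:103334638-103334887, forward strand: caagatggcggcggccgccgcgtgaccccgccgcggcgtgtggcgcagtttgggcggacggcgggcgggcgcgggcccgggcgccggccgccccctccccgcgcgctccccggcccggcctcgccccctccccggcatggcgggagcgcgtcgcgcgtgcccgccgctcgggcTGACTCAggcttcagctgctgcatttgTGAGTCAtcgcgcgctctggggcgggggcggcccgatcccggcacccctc
The windows searched ran from 250 bases before to 50 after each start site. A CCAAT box was found in 34.61% of all 35116 human windows and in 18 of 49 windows of the 36 listed genes that were matched, EIF4A1 among them, and an AP-1 site in 7.71% of all windows and in 3 of the 49. The amino acid response element TGATGNAA, searched on both strands like the rest, was in 3.62% of all windows and in 0 of the 49, and the cAMP response element TGACGTCA in 1.85% and 0. The E-box CACGTG was in 7.26% of all windows and in 10 of the 49. The printed sites did not overlap each other. A match is a description of letters and no evidence of binding.

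Across the 42 genes, the calls were counted in each of 9 comparisons and set against those over all genes. Here and below, shares over all genes are those of the main fit unless another fit is named. Counts under another setting without such a share show only how the count moved. For methionase against vector at 24 h in DMSO, 9 of 42 were higher and 8 lower, where 18.1% of all tested genes were higher and 21.1% lower. The share called was thus close to that over all tested genes. Setting the library medians equal gave 9 higher and 5 lower. Without methionase replicate 3 or vector replicate 2 of that setting, 11 were called in all. With Vps34-IN1, 4 were higher and 13 lower in methionase than in vector cells, where 17.3% of all genes were higher and 22.2% lower. That split depended on the scaling, with 9 higher and 11 lower after quantile normalization and 6 and 10 with equal medians, and without methionase Vps34-IN1 replicate 1 the total was 11. At 12 h, limma called 0 of 42 in either direction, where 0.681% of all genes were higher and 1.49% lower. Of these, 7 had an unadjusted p below 0.05, and limma voom on recovered counts also called 0.

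For the drug in vector cells, 22 of 42 genes were not called. With Vps34-IN1, 17 were higher than in DMSO and 3 lower, where 20.2% of all genes were higher and 19.9% lower. The median log2 difference was 0.12 over the 42 and 0.00 over all genes tested. After quantile normalization the split was 8 higher and 8 lower and the median -0.01, so the direction of the group as a whole turned on the scaling. In methionase cells the drug raised 4 and lowered 2, where 2.95% of all genes were higher and 4.98% lower. Equal medians gave 6 higher and 1 lower there, and limma voom 5 and 1. Without methionase DMSO replicate 3, 2 genes were called. The methionase by drug interaction was called for 3 higher and 3 lower, where 9.92% and 11.9% of all genes were. It gave 6 and 2 after quantile normalization, and 3 calls in all without methionase DMSO replicate 2, methionase Vps34-IN1 replicate 1 or vector DMSO replicate 3 at 24 h. The methionase by time interaction was called for 4 higher and 2 lower, where 5.33% and 6.33% of all genes were. It gave 3 and 5 after quantile normalization, and 7 and 2 with equal medians. At 24 h compared with 12 h, 1 gene was higher and 9 lower in vector cells, where 4.61% of all genes were higher and 6.88% lower, and quantile normalization gave 5 and 6. Without vector 12 h replicate 3 or vector 24 h replicate 1 the total was 5. In methionase cells, 10 were higher and 10 lower over the same time, where 18.4% and 21.3% of all genes were.

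Several of these comparisons share libraries. The 3 vector libraries at 24 h in DMSO are the reference for methionase in DMSO, for the drug in vector cells and, as the later time, for the change over time, so values for a gene in these comparisons are given side by side and not correlated.

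**Figure D2:**
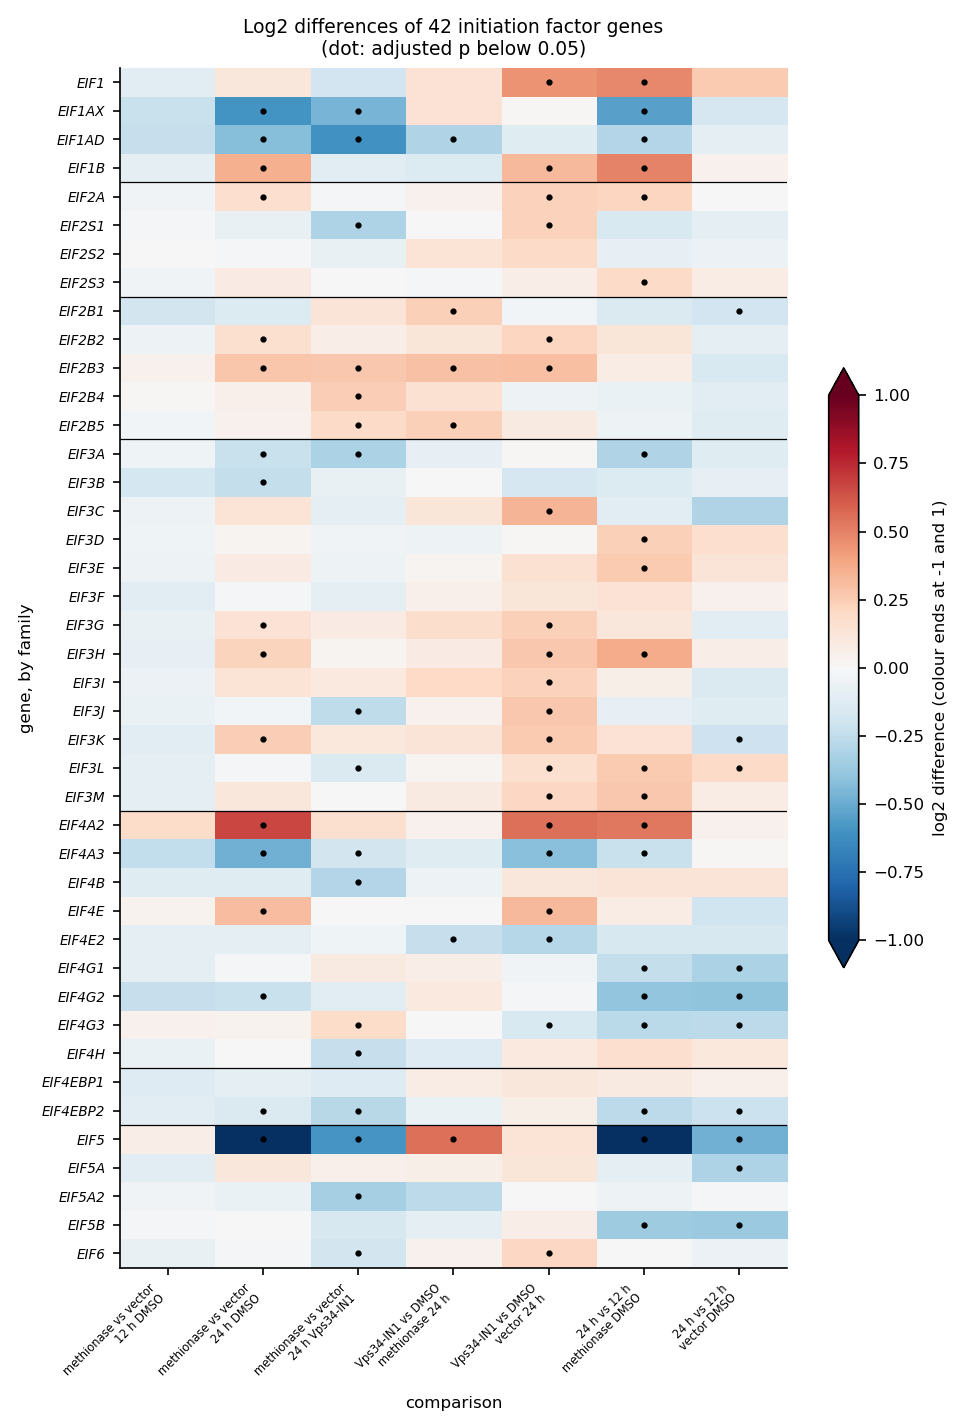
Log2 differences (colour, ending at -1 and 1) of 42 initiation factor genes (rows, grouped by family) in 7 comparisons (columns), with a dot where the adjusted p was below 0.05. EIF5 holds the darkest blue cells, at -1.002 for methionase in DMSO at 24 h and -1.54 for 24 h against 12 h in methionase cells, and the 12 h column holds no dot.

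The eIF1 genes moved in both directions. EIF1AX encodes eIF1A, which with eIF1 keeps the scanning ribosome open. At 24 h in DMSO it had 3816, 4039 and 3579 normalised reads in methionase libraries, against 5786, 6023 and 5570.2 in vector libraries. With Vps34-IN1 it had 3835, 4312 and 4511 in methionase and 6413, 5512 and 5672 in vector libraries. No methionase library reached a vector library in either setting, and EIF1AX fell by 34.2% in DMSO (log2 difference -0.59 ± 0.07, adjusted p = 2.80e-07) and by 28.1% with the drug (-0.47 ± 0.07, adjusted p = 8.41e-06). At 12 h it had 5515, 5555 and 5649 in methionase and 6331, 6411 and 6842 in vector libraries. These did not overlap either, but the log2 difference of -0.22 ± 0.07 was not called (adjusted p = 0.08). The methionase difference at 24 h minus that at 12 h was -0.37 ± 0.10 (adjusted p = 0.0134). Reads of EIF1AX may be shared with near-identical pseudogene copies. EIF1AD encodes a protein with an eIF1A-like domain. It had 506, 553 and 643 normalised reads in methionase and 772, 757 and 835 in vector libraries at 24 h in DMSO, and 422, 438 and 475 in methionase and 773, 719 and 663 in vector libraries with Vps34-IN1. The groups were separate in both settings, with log2 differences of -0.43 ± 0.08 (adjusted p = 0.000138) and -0.60 ± 0.08 (adjusted p = 2.32e-06). The drug lowered EIF1AD in methionase cells by a log2 difference of -0.30 (adjusted p = 0.02), a call that was lost without methionase 24 h DMSO replicate 3 or methionase 24 h Vps34-IN1 replicate 1 or 2 (log2 difference -0.29 to -0.21, adjusted p = 0.054 to 0.125) or in a fit of only the groups compared (adjusted p = 0.152).

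EIF1 encodes eIF1 itself and EIF1B a close paralog. EIF1B was higher with methionase in DMSO, and both were higher with the drug in vector cells. EIF1B had 2654, 2718 and 2486 normalised reads in methionase and 2101, 2049.6 and 1938 in vector libraries at 24 h in DMSO. It rose by 0.35 ± 0.08 on the log2 scale (adjusted p = 0.00171), with every methionase library above every vector library. With Vps34-IN1 the methionase libraries had 2026, 2408 and 2728 and the vector libraries 2727, 2442 and 2537. These overlapped, and the difference of -0.11 ± 0.08 was not called (adjusted p = 0.311). The interaction with the drug was -0.47 ± 0.12 (adjusted p = 0.00644), and that with time 0.45 ± 0.12 (adjusted p = 0.0149). The time interaction was not called without vector 12 h DMSO replicate 1 (log2 difference 0.39, adjusted p = 0.0516). In vector cells, Vps34-IN1 raised EIF1B by 0.33 (adjusted p = 0.00328). EIF1 had 26909, 23651 and 24516 normalised reads in vector cells with Vps34-IN1, against 19576, 19216 and 16147 in DMSO. The drug libraries were all higher, and the log2 difference was 0.45 ± 0.10 (adjusted p = 0.00102), but it was not called after quantile normalization (0.19, adjusted p = 0.0818). Methionase did not give a called difference in EIF1 at 24 h in DMSO (0.11 ± 0.10, adjusted p = 0.406). Over time in methionase cells both paralogs rose, EIF1 by 0.48 (adjusted p = 0.000629) and EIF1B by 0.50 (adjusted p = 5.30e-05).

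**Figure D3:**
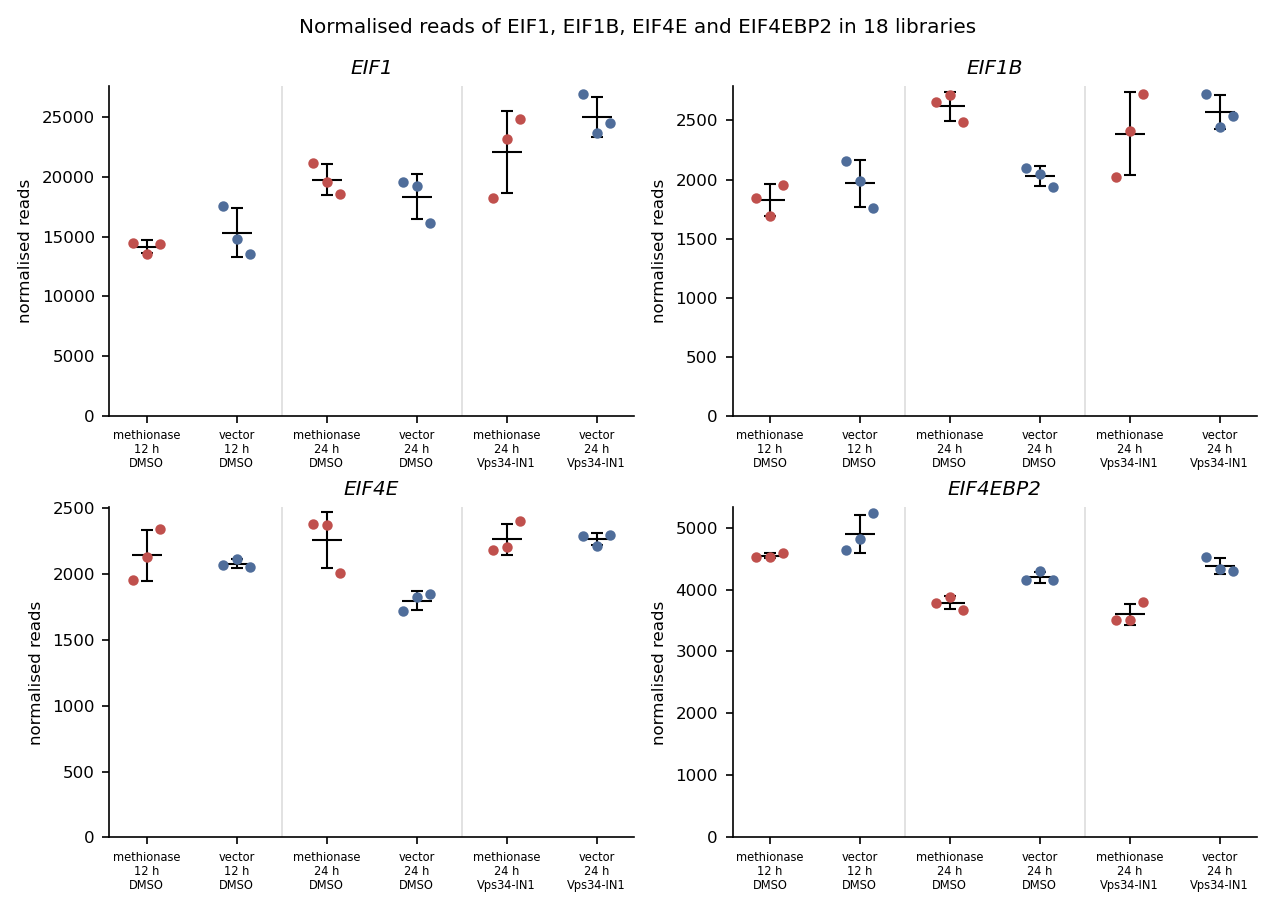
Normalised reads (vertical axes, from 0) of EIF1, EIF1B, EIF4E and EIF4EBP2 in each of 18 libraries (points), methionase in red and vector in blue, with the mean and SD of 3 libraries per group as black bars. EIF1B and EIF4E are higher in methionase than in vector libraries at 24 h in DMSO, while with Vps34-IN1 the EIF1B methionase libraries, at 2026 to 2728, overlap the vector libraries.

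With methionase at 24 h in DMSO, 1 of 4 eIF2 genes was higher and 0 lower, where 18.1% of all genes were higher and 21.1% lower. With Vps34-IN1, 0 were higher and 1 lower in methionase cells, where 17.3% and 22.2% of all genes were. EIF2S1 encodes the alpha subunit, the one that stress kinases phosphorylate. With Vps34-IN1 it had 1669, 1996 and 2236 normalised reads in methionase and 2557, 2371 and 2391 in vector libraries, and fell by 19.4% (log2 difference -0.31 ± 0.07, adjusted p = 0.00192) with no overlap. In DMSO at 24 h its log2 difference of -0.07 ± 0.07 was not called (adjusted p = 0.448), and the interaction of -0.23 was not called either (adjusted p = 0.117). The beta and gamma subunit genes EIF2S2 and EIF2S3 were not called in any of the 3 comparisons of methionase with vector, with log2 differences of -0.01 and 0.08 at 24 h in DMSO. EIF2S3 has a near-identical copy, EIF2S3B, so its own level is uncertain. EIF2A encodes a separate protein that can deliver initiator tRNA outside the eIF2 complex. It rose by 0.17 ± 0.06 with methionase at 24 h in DMSO (adjusted p = 0.0346). That call was lost without methionase 24 h DMSO replicate 2 or vector 24 h DMSO replicate 1 or 2 or 3 (log2 difference 0.10 to 0.18, adjusted p = 0.0598 to 0.251), with no filter on low values (adjusted p = 0.0669) or in a fit of only the groups compared (adjusted p = 0.0693). Vps34-IN1 in vector cells raised EIF2A by 0.23 (adjusted p = 0.00537) and EIF2S1 by 0.23 (adjusted p = 0.0139). EIF2A was not called after quantile normalization (0.14, adjusted p = 0.0713), and EIF2S1 was not called without vector 24 h DMSO replicate 1 or vector 24 h Vps34-IN1 replicate 1 (log2 difference 0.20, adjusted p = 0.0604 to 0.0751) or after quantile normalization (0.16, adjusted p = 0.069). In the main fit the drug raised 2 of the 4 genes in vector cells and lowered 0, where 20.2% of all genes were higher and 19.9% lower. After quantile normalization 0 of the 4 genes were higher and 1 was lower.

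The eIF2B complex exchanges the nucleotide on eIF2, and its called genes were higher with methionase at 24 h. In DMSO, 4 of 5 subunit genes had positive log2 differences. Of the 5, 2 were called higher and 0 lower, where 18.1% of all genes were higher and 21.1% lower. The EIF2B1 gene went the other way, at -0.14 and not called. It had 1486, 1534 and 1379.9 normalised reads in methionase and 1561, 1595 and 1707 in vector libraries, without overlap. At 12 h its log2 difference was -0.18, also without overlap and not called. In methionase compared with vector cells under Vps34-IN1, 3 of 5 subunit genes were higher and 0 lower, where 17.3% of all genes were higher and 22.2% lower, with a family median of 0.19. The count was 3 with limma voom, 4 with equal medians and 5 after quantile normalization. EIF2B3, the gamma subunit, had 1199, 1398 and 1411 normalised reads in methionase and 1142, 1002 and 1125 in vector libraries with Vps34-IN1, and 1103, 1089 and 1032 in methionase and 843, 909 and 859 in vector libraries in DMSO. Methionase libraries were above vector libraries in both settings, by 0.27 ± 0.07 (adjusted p = 0.0035) and 0.28 ± 0.07 (adjusted p = 0.00284). The delta subunit EIF2B4 had 1127, 1202 and 1112 in methionase and 899, 989 and 972 in vector libraries with Vps34-IN1, without overlap, and rose by 0.25 ± 0.06 (adjusted p = 0.0038). EIF2B5, the catalytic epsilon subunit, rose by 0.19 ± 0.06 in that setting (adjusted p = 0.0162), and was not called without methionase 24 h Vps34-IN1 replicate 1 or vector 24 h Vps34-IN1 replicate 1 (log2 difference 0.16 to 0.18, adjusted p = 0.05 to 0.0798) or in a fit of only the groups compared (adjusted p = 0.0699). In DMSO, EIF2B4 and EIF2B5 had log2 differences of 0.05 and 0.04 and were not called. EIF2B2, the beta subunit, was called higher in DMSO (0.16 ± 0.06, adjusted p = 0.035). It was not called without methionase 24 h DMSO replicate 2 or 3 or vector 24 h DMSO replicate 1 or 2 (log2 difference 0.14 to 0.15, adjusted p = 0.0856 to 0.121), with no filter on low values (adjusted p = 0.0587) or in a fit of only the groups compared (adjusted p = 0.055).

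Vps34-IN1 also raised eIF2B genes in methionase cells. There 3 of 5 were higher than in DMSO and 0 lower, where 2.95% of all genes were higher and 4.98% lower, and the count was 3 under each of the other scalings. EIF2B3 rose by 0.29 ± 0.07 (adjusted p = 0.0117), and was not called without methionase 24 h DMSO replicate 3 (log2 difference 0.26, adjusted p = 0.0546) or in a fit of only the groups compared (adjusted p = 0.114). EIF2B1, the alpha subunit, had 1757, 1643 and 1845 normalised reads in methionase cells with Vps34-IN1, against 1486, 1534 and 1379.9 in DMSO. All drug libraries were higher, and the log2 difference was 0.24 ± 0.06 (adjusted p = 0.0162). The call was lost without methionase 24 h DMSO replicate 3 or methionase 24 h Vps34-IN1 replicate 3 (log2 difference 0.20, adjusted p = 0.0513 to 0.0827) or in a fit of only the groups compared (adjusted p = 0.187). EIF2B5 rose by 0.24 ± 0.06 (adjusted p = 0.0166), and was not called without methionase 24 h DMSO replicate 1 or 3 (log2 difference 0.21 to 0.23, adjusted p = 0.0559 to 0.069) or in a fit of only the groups compared (adjusted p = 0.181). In vector cells the drug raised EIF2B3 by 0.30 ± 0.07 (adjusted p = 0.00164), while EIF2B1 was at -0.03 and not called. The interaction for EIF2B1 was 0.27 ± 0.09 (adjusted p = 0.0295), and it was not called without methionase 24 h DMSO replicate 3 or methionase 24 h Vps34-IN1 replicate 1 or 3 or vector 24 h DMSO replicate 3 or vector 24 h Vps34-IN1 replicate 1 (log2 difference 0.23 to 0.26, adjusted p = 0.0508 to 0.0853), with no filter on low values (adjusted p = 0.0563) or in a fit of only the groups compared (adjusted p = 0.067).

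The eIF3 genes encode the 13 subunits of the scaffold that binds the small ribosomal subunit. In vector cells, Vps34-IN1 raised 8 of the 13 and lowered 0, where 20.2% of all genes were higher and 19.9% lower, with a family median of 0.21. Equal medians and limma voom each gave 9 higher and 0 lower, but quantile normalization gave 3 higher and 2 lower with a median of 0.04. EIF3H, a peripheral subunit, had 7030.2, 7296 and 7936 normalised reads in vector cells with the drug, against 6088, 6024 and 6253 in DMSO, without overlap. Its log2 difference was 0.27 ± 0.07 (adjusted p = 0.00223), and it was not called after quantile normalization (0.13, adjusted p = 0.12). EIF3J, the loosely bound subunit, rose by 0.27 ± 0.08 (adjusted p = 0.00581). EIF3C, a core subunit, rose by 0.34 ± 0.11 (adjusted p = 0.0187), and was not called without vector 24 h DMSO replicate 1 or 3 or vector 24 h Vps34-IN1 replicate 1 (log2 difference 0.29 to 0.33, adjusted p = 0.0543 to 0.0762). The other 5 called subunit genes, EIF3G, EIF3I, EIF3K, EIF3L and EIF3M, had log2 differences between 0.16 and 0.26. Of these, EIF3G was not called after quantile normalization (0.11, adjusted p = 0.0986), EIF3M after quantile normalization (0.08, adjusted p = 0.249), and EIF3I without vector 24 h DMSO replicate 3 (log2 difference 0.19, adjusted p = 0.0523) or after quantile normalization (0.04, adjusted p = 0.647). EIF3L was not called without vector 24 h DMSO replicate 2 or 3 or vector 24 h Vps34-IN1 replicate 2 or 3 (log2 difference 0.14 to 0.17, adjusted p = 0.0522 to 0.0996) or after quantile normalization (-0.07, adjusted p = 0.347), so its sign turned under one scaling.

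Methionase gave a mixed picture in eIF3. At 24 h in DMSO, 3 of 13 were higher and 2 lower, where 18.1% of all genes were higher and 21.1% lower. The split was 2 and 3 after quantile normalization and 3 and 1 with equal medians. EIF3K, a small peripheral subunit, had 3999, 4257 and 3658 normalised reads in methionase and 3273, 3434 and 3284 in vector libraries. Every methionase library was higher, with a log2 difference of 0.25 ± 0.06 (adjusted p = 0.00308), and the difference at 24 h exceeded that at 12 h by 0.36 ± 0.09 (adjusted p = 0.0107). EIF3H had 6942, 7793 and 6759 in methionase libraries, all above the vector libraries given above, and rose by 0.22 ± 0.07 (adjusted p = 0.0109). It was not called without methionase 24 h DMSO replicate 2 (log2 difference 0.16, adjusted p = 0.0871). Its time interaction of 0.31 ± 0.09 (adjusted p = 0.0364) was not called without methionase 12 h DMSO replicate 1 or 2 or methionase 24 h DMSO replicate 2 or vector 12 h DMSO replicate 1 or 2 or vector 24 h DMSO replicate 1 or 2 (log2 difference 0.24 to 0.31, adjusted p = 0.0616 to 0.117), with no filter on low values (adjusted p = 0.0787) or after quantile normalization (0.19, adjusted p = 0.182). EIF3G, at 0.15 (adjusted p = 0.0449), was the remaining call, and it was not called without methionase 24 h DMSO replicate 1 or 3 or vector 24 h DMSO replicate 1 or 2 or 3 (log2 difference 0.11 to 0.15, adjusted p = 0.0589 to 0.165), with no filter on low values (adjusted p = 0.079), in a fit of only the groups compared (adjusted p = 0.0803), after quantile normalization (0.13, adjusted p = 0.0514) or with the replicate block (adjusted p = 0.0583).

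The largest and the next core subunit, EIF3A and EIF3B, went the other way. EIF3A had 13022, 11134 and 9738 normalised reads in methionase and 13117, 14236 and 12069 in vector libraries in DMSO, and 10515, 9932 and 11352 in methionase and 12538, 12896 and 14206 in vector libraries with Vps34-IN1. The DMSO ranges overlapped and the drug ranges did not. EIF3A fell by a log2 difference of -0.32 ± 0.08 with Vps34-IN1 (adjusted p = 0.00453). In DMSO its log2 difference of -0.22 ± 0.08 passed the threshold (adjusted p = 0.0384) but did not without methionase 24 h DMSO replicate 2 or 3 or vector 24 h DMSO replicate 1 or 2 (log2 difference -0.22 to -0.12, adjusted p = 0.0847 to 0.26), with equal library medians (-0.19, adjusted p = 0.0923), with no filter on low values (adjusted p = 0.0841) or in a fit of only the groups compared (adjusted p = 0.0927). EIF3B was lower by a log2 difference of -0.24 ± 0.07 in DMSO (adjusted p = 0.0094), and was not called without methionase 24 h DMSO replicate 3 (log2 difference -0.17, adjusted p = 0.0695). With Vps34-IN1, EIF3J and EIF3L were also lower in methionase cells, at -0.26 and -0.15. EIF3J was not called without methionase 24 h Vps34-IN1 replicate 1 (log2 difference -0.17, adjusted p = 0.085) or after quantile normalization (-0.13, adjusted p = 0.168). EIF3L was not called without methionase 24 h Vps34-IN1 replicate 1 or 3 or vector 24 h Vps34-IN1 replicate 1 or 2 or 3 (log2 difference -0.15 to -0.12, adjusted p = 0.0706 to 0.153), with equal library medians (-0.12, adjusted p = 0.124), with no filter on low values (adjusted p = 0.0641), in a fit of only the groups compared (adjusted p = 0.137) or with the replicate block (adjusted p = 0.0532). No eIF3 gene was higher there, where 17.3% of all genes were higher and 22.2% lower, although quantile normalization gave 2 higher and 2 lower in all, and equal medians 0 and 2. EIF3C shares nearly all of its sequence with EIF3CL. The copy had 41.7, 49.98 and 47.7 normalised reads in methionase cells at 24 h and 153, 165 and 269 at 12 h, in DMSO, and 34.6, 44.6 and 36.9 in vector cells at 24 h and 166, 162 and 205 at 12 h. It was lower at 24 h by a log2 difference of -1.21 ± 0.12 in methionase cells (adjusted p = 3.28e-08) and by a log2 difference of -1.24 ± 0.12 in vector cells (adjusted p = 2.78e-07), while EIF3C itself was at -0.12 and -0.30 and not called. The handling of reads that match both copies is not stated, which leaves both values uncertain.

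**Figure D4:**
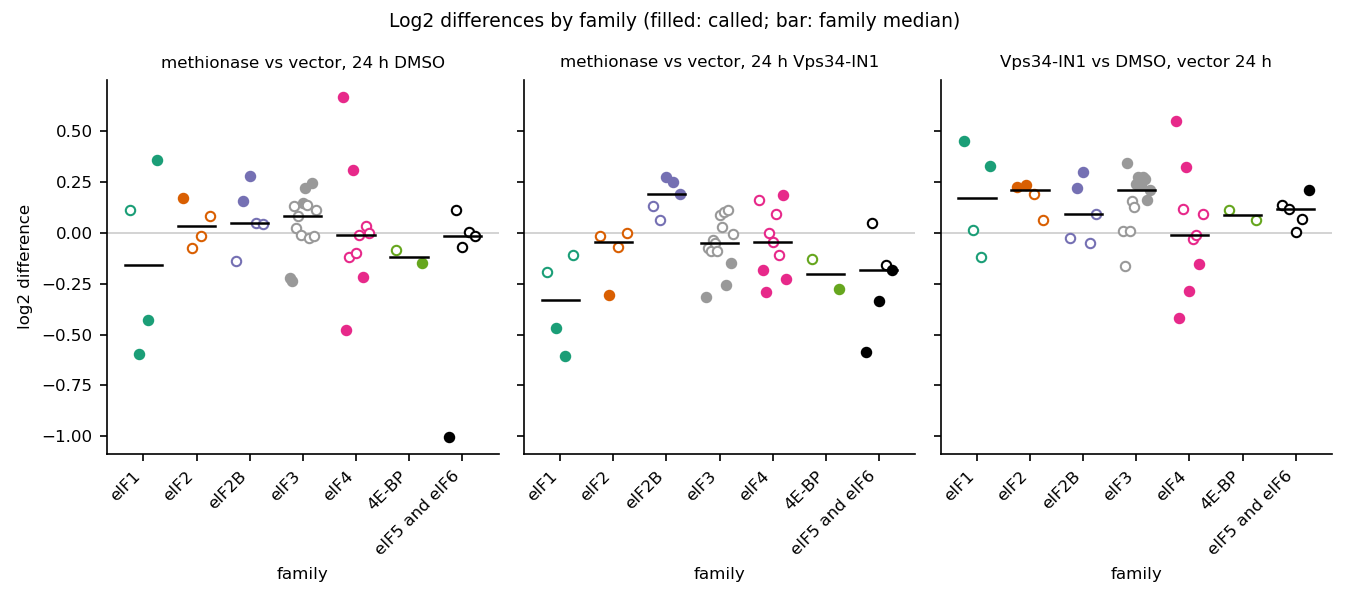
Log2 differences (vertical axis) of 42 genes by family (horizontal axis) for methionase against vector at 24 h in DMSO, the same with Vps34-IN1, and Vps34-IN1 against DMSO in vector cells at 24 h. Filled points are called genes, open points are not, and bars are family medians. The eIF2B median is 0.19 under Vps34-IN1, and the eIF3 median is 0.21 for the drug in vector cells.

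In DMSO at 24 h, the helicase genes had the largest methionase differences of the eIF4 genes. EIF4A2 encodes a paralog of the cap-complex RNA helicase eIF4A. At 24 h in DMSO it had 10542, 11477 and 9075 normalised reads in methionase and 6438, 6701 and 6274 in vector libraries. Every methionase library was higher, and the mean was 1.60-fold that of the vector, a log2 difference of 0.67 ± 0.07 (adjusted p = 8.83e-08). In vector cells, Vps34-IN1 gave 9778, 9321 and 9452, also all above the DMSO libraries, with a log2 difference of 0.55 ± 0.07 (adjusted p = 1.27e-06). In methionase cells with the drug it had 10389.7, 10544 and 10985. All 3 lay above the vector libraries with the drug, but the methionase difference of 0.16 ± 0.07 was not called (adjusted p = 0.0742), and the interaction was -0.51 ± 0.10 (adjusted p = 0.000715). EIF4A2 was thus high with methionase, with the drug and with both, and the groups with both or with methionase alone overlapped. At 12 h the 3 methionase libraries, at 6727, 7561 and 7088, also lay above the vector libraries, at 6466, 6407 and 5953, but the difference of 0.18 was not called (adjusted p = 0.174). The time interaction was 0.49 ± 0.10 (adjusted p = 0.00234).

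EIF4A3, the helicase of the exon junction complex that marks spliced RNA, ran opposite to EIF4A2. It had 3503, 3152 and 3462 normalised reads in methionase and 4685, 4774 and 4721 in vector libraries in DMSO at 24 h, and fell by a log2 difference of -0.48 ± 0.07 (adjusted p = 1.12e-05) with no overlap. Vps34-IN1 lowered it in vector cells to 3747, 3386 and 3433, a log2 difference of -0.42 ± 0.07 (adjusted p = 5.72e-05). With both, the libraries had 3334, 3322 and 2655, lower than vector with the drug by a log2 difference of -0.18 ± 0.07 (adjusted p = 0.0433). That call was lost without methionase 24 h Vps34-IN1 replicate 3 or vector 24 h Vps34-IN1 replicate 1 or 3 (log2 difference -0.20 to -0.08, adjusted p = 0.06 to 0.333), with equal library medians (-0.15, adjusted p = 0.0945), with no filter on low values (adjusted p = 0.088), in a fit of only the groups compared (adjusted p = 0.128) or after quantile normalization (-0.09, adjusted p = 0.31). The interaction of 0.29 ± 0.10 (adjusted p = 0.0391) was not called without methionase 24 h DMSO replicate 2 or methionase 24 h Vps34-IN1 replicate 1 or 2 or vector 24 h DMSO replicate 1 or 2 or 3 or vector 24 h Vps34-IN1 replicate 2 or 3 (log2 difference 0.24 to 0.30, adjusted p = 0.0639 to 0.111), with no filter on low values (adjusted p = 0.086) or in a fit of only the groups compared (adjusted p = 0.0813).

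The 250 bases before the annotated start sites of EIF4A2, EIF4A3 and EIF1AX, which with EIF5 had the lowest adjusted p-values among the 42 for methionase at 24 h in DMSO, are given from RefSeq on GRCh38.p14. Of the motifs searched, EIF4A3 held the E-box, in capitals, and the windows of EIF4A2 and EIF1AX held none of them.
EIF4A2, chr3:186783327-186783576, forward strand: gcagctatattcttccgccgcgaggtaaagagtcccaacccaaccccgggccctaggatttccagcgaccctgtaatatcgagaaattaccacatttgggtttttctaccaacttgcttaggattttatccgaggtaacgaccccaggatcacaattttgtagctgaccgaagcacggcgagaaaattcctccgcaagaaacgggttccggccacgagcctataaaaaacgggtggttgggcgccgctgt
EIF4A3, chr17:80147129-80147378, reverse strand: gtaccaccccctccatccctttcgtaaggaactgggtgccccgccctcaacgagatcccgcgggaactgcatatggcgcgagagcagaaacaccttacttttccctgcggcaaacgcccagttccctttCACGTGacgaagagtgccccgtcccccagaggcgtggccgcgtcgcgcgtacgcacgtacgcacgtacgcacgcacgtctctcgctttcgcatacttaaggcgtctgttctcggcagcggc
EIF1AX, chrX:20141839-20142088, reverse strand: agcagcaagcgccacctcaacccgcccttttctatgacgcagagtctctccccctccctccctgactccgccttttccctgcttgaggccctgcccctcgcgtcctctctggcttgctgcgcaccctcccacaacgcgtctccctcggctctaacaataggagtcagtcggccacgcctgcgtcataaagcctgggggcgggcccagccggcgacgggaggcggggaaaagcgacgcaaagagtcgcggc

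EIF4E encodes the cap-binding protein. It had 2384, 2374 and 2011 normalised reads in methionase and 1718, 1827 and 1852 in vector libraries at 24 h in DMSO, and 2182, 2209 and 2400.4 in methionase and 2289, 2215 and 2300.1 in vector libraries with Vps34-IN1. The DMSO groups did not overlap, and EIF4E rose by 0.31 ± 0.07 (adjusted p = 0.000847). The drug groups overlapped, with a difference that was not called (adjusted p = 0.973). Vps34-IN1 raised EIF4E in vector cells by 0.32 ± 0.07 (adjusted p = 0.000587). The interaction was -0.31 ± 0.10 (adjusted p = 0.0216), and it was not called without methionase 24 h DMSO replicate 1 or 2 or methionase 24 h Vps34-IN1 replicate 1 or vector 24 h DMSO replicate 1 (log2 difference -0.29 to -0.27, adjusted p = 0.0514 to 0.0649) or after quantile normalization (-0.25, adjusted p = 0.0552). EIF4E2 encodes 4EHP, a cap-binding protein that represses translation. The drug lowered it in vector cells by a log2 difference of -0.28 ± 0.07 (adjusted p = 0.00255). In methionase cells its difference of -0.23 ± 0.07 (adjusted p = 0.0461) was not called without methionase 24 h DMSO replicate 1 or 2 or methionase 24 h Vps34-IN1 replicate 1 or 3 (log2 difference -0.25 to -0.17, adjusted p = 0.0617 to 0.193), with equal library medians (-0.19, adjusted p = 0.104), with limma voom (-0.24, adjusted p = 0.0545), with no filter on low values (adjusted p = 0.0936), in a fit of only the groups compared (adjusted p = 0.224) or with the replicate block (adjusted p = 0.0561).

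The eIF4G scaffolds bridge the cap complex and eIF3. EIF4G2, a family member that lacks the cap-complex binding part, had 10579, 11196 and 8954 normalised reads in methionase and 11336, 12057 and 12289 in vector libraries at 24 h in DMSO, without overlap. It was lower by a log2 difference of -0.22 ± 0.07 (adjusted p = 0.0157), a call lost without methionase 24 h DMSO replicate 3 or vector 24 h DMSO replicate 2 or 3 (log2 difference -0.21 to -0.13, adjusted p = 0.0513 to 0.134), with equal library medians (-0.18, adjusted p = 0.0518) or in a fit of only the groups compared (adjusted p = 0.0573). EIF4G2 fell with time in both constructs, by a log2 difference of -0.39 in methionase (adjusted p = 0.0001) and -0.40 in vector cells (adjusted p = 0.00071). EIF4G1, the main scaffold, fell with time by a log2 difference of -0.32 ± 0.07 in vector cells (adjusted p = 0.00426). In methionase cells EIF4G1 was also called lower, at 1437 normalised reads per kilobase at 24 h against 1696 at 12 h. That call was lost without methionase 24 h DMSO replicate 3 (log2 difference -0.18, adjusted p = 0.0546). EIF4G3 fell with time by a log2 difference of -0.27 in methionase (adjusted p = 0.000926) and -0.26 in vector cells (adjusted p = 0.00632). Under Vps34-IN1, EIF4G3 was higher in methionase cells by 0.19 ± 0.06 (adjusted p = 0.015), and was not called without methionase 24 h Vps34-IN1 replicate 1 (log2 difference 0.16, adjusted p = 0.0621) or in a fit of only the groups compared (adjusted p = 0.0574). The drug lowered EIF4G3 in vector cells by a log2 difference of -0.15 ± 0.06 (adjusted p = 0.0407), and it was not called without vector 24 h DMSO replicate 1 or 2 or 3 or vector 24 h Vps34-IN1 replicate 1 or 2 (log2 difference -0.17 to -0.14, adjusted p = 0.0546 to 0.121), with equal library medians (-0.11, adjusted p = 0.158) or with no filter on low values (adjusted p = 0.0763). The helicase cofactor EIF4B had 21299, 22554 and 23565 normalised reads in methionase and 27033, 27301 and 28074 in vector libraries with Vps34-IN1, without overlap. It fell by a log2 difference of -0.29 ± 0.06 (adjusted p = 0.00054). A second cofactor gene, EIF4H, was also lower there, at -0.23, and was not called without methionase 24 h Vps34-IN1 replicate 1 (log2 difference -0.16, adjusted p = 0.103).

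The 4E-BP genes encode proteins that hold eIF4E away from eIF4G until mTORC1 phosphorylates them. EIF4EBP2 had 3506, 3501 and 3798 normalised reads in methionase and 4532, 4323 and 4297 in vector libraries with Vps34-IN1, without overlap, and fell by a log2 difference of -0.28 ± 0.06 (adjusted p = 0.000366). In DMSO at 24 h the methionase libraries, at 3789.8, 3885 and 3677, also lay below the vector libraries, at 4148, 4301 and 4148. The difference of -0.15 ± 0.06 (adjusted p = 0.0397) was not called without methionase 24 h DMSO replicate 1 or 3 or vector 24 h DMSO replicate 1 or 2 or 3 (log2 difference -0.16 to -0.13, adjusted p = 0.0628 to 0.128), with equal library medians (-0.11, adjusted p = 0.132), with no filter on low values (adjusted p = 0.0694), in a fit of only the groups compared (adjusted p = 0.0678), after quantile normalization (-0.13, adjusted p = 0.0517) or with the replicate block (adjusted p = 0.0509). EIF4EBP2 was lower at 24 h than at 12 h by a log2 difference of -0.26 in methionase (adjusted p = 0.000728) and -0.22 in vector cells (adjusted p = 0.0147). The vector change was not called without vector 12 h DMSO replicate 3 or vector 24 h DMSO replicate 1 or 3 (log2 difference -0.21 to -0.17, adjusted p = 0.0511 to 0.11) or after quantile normalization (-0.16, adjusted p = 0.0653). EIF4EBP1 was not called in any of the 9 comparisons, with log2 differences of -0.09 for methionase in DMSO and -0.13 with Vps34-IN1 at 24 h.

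EIF5B, EIF5A, EIF5A2 and EIF6 were not called for methionase in DMSO at 24 h. EIF5B, the GTPase that joins the subunits, fell with time by a log2 difference of -0.35 ± 0.06 in methionase (adjusted p = 0.000138) and -0.37 ± 0.06 in vector cells (adjusted p = 0.00071), and was at -0.16 and not called for methionase with Vps34-IN1 (adjusted p = 0.0543). EIF5A2 had 95.1, 119 and 126 normalised reads in methionase and 173, 142 and 167 in vector libraries with Vps34-IN1. It fell by a log2 difference of -0.34 ± 0.09 (adjusted p = 0.00577) with no overlap. EIF5A was lower at 24 h than at 12 h in vector cells by a log2 difference of -0.31 ± 0.08 (adjusted p = 0.0182), and was not called without vector 12 h DMSO replicate 1 or 3 or vector 24 h DMSO replicate 1 or 3 (log2 difference -0.30 to -0.28, adjusted p = 0.0562 to 0.0767). EIF5A has a near-identical copy, EIF5AL1, so its level is uncertain. EIF6, which keeps the large subunit from joining too early, was lower by a log2 difference of -0.19 in methionase than in vector cells with the drug (adjusted p = 0.0279) and higher by 0.21 with the drug in vector cells (adjusted p = 0.013). The methionase call was lost without methionase 24 h Vps34-IN1 replicate 1 or 3 or vector 24 h Vps34-IN1 replicate 1 or 3 (log2 difference -0.19 to -0.11, adjusted p = 0.0608 to 0.194), with equal library medians (-0.15, adjusted p = 0.0745), with no filter on low values (adjusted p = 0.0545), in a fit of only the groups compared (adjusted p = 0.115) or after quantile normalization (-0.06, adjusted p = 0.435), and the drug call after quantile normalization (0.14, adjusted p = 0.0748).

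**Figure D5:**
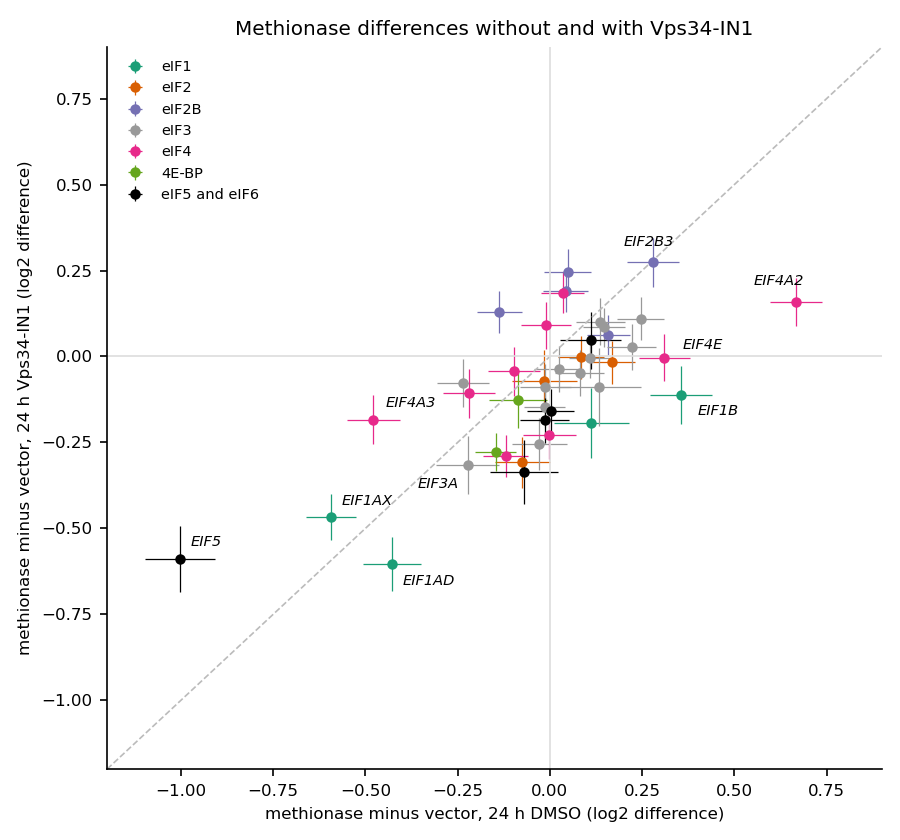
Log2 difference of methionase against vector at 24 h with Vps34-IN1 (vertical axis) set against that in DMSO (horizontal axis) for 42 genes, coloured by family, with bars of 1 standard error and a dashed line of equal values. EIF5, at -1.002 in DMSO and -0.59 with the drug, lies apart at the left, EIF4A2, at 0.67 in DMSO and 0.16 with the drug, at the right, and EIF2B3 lies near the dashed line, at 0.28 in DMSO and 0.27 with the drug.

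Further changes over time were called in methionase cells. Beside those given above, EIF3H rose at 24 h compared with 12 h by 0.37 (adjusted p = 0.000112), EIF3M by 0.27 (adjusted p = 0.000541) and EIF3D, a subunit that can itself bind the cap, by 0.24 (adjusted p = 0.00704). EIF3E and EIF3L rose by 0.26 and 0.26. EIF3E was not called after quantile normalization (0.11, adjusted p = 0.172), and EIF3L was not called after quantile normalization (0.08, adjusted p = 0.267). EIF4A2 rose by 0.53 (adjusted p = 2.68e-06). EIF2A was called higher, at 0.21, but not without methionase 24 h DMSO replicate 2 (log2 difference 0.14, adjusted p = 0.0834). EIF4A3 was called lower, but not without methionase 12 h DMSO replicate 3 or methionase 24 h DMSO replicate 2 (log2 difference -0.19 to -0.17, adjusted p = 0.0704 to 0.0916). EIF1AX fell by a log2 difference of -0.54 (adjusted p = 1.32e-06) and EIF1AD by a log2 difference of -0.29 (adjusted p = 0.00521). EIF3A fell by a log2 difference of -0.30 (adjusted p = 0.00623), a call lost without methionase 24 h DMSO replicate 3 (log2 difference -0.20, adjusted p = 0.0616). In vector cells EIF3L was higher by 0.19 (adjusted p = 0.0321). It was not called without vector 12 h DMSO replicate 1 or 2 or 3 or vector 24 h DMSO replicate 1 or 2 (log2 difference 0.17 to 0.19, adjusted p = 0.0655 to 0.132), with equal library medians (0.16, adjusted p = 0.0751) or with no filter on low values (adjusted p = 0.0577). EIF3K was lower by a log2 difference of -0.21 (adjusted p = 0.0331), and was not called without vector 12 h DMSO replicate 1 or 2 or 3 or vector 24 h DMSO replicate 1 or 3 (log2 difference -0.22 to -0.19, adjusted p = 0.0698 to 0.124), with no filter on low values (adjusted p = 0.0713) or after quantile normalization (-0.13, adjusted p = 0.141).

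At 12 h the 42 genes showed a small shift that no single gene carried past the threshold. Their median log2 difference was -0.07, with all genes at 0.00, and 35 of 42 were negative. All 3 methionase libraries lay below all 3 vector libraries for 17 of the 42, where 17.7% of all genes did, and above them for 1, where 11.8% did. After quantile normalization their median was -0.00. The lowest adjusted p belonged to EIF4A3, at -0.25 ± 0.07 (adjusted p = 0.069), which had 3943, 3782 and 4089 normalised reads in methionase and 4758, 4505 and 4791 in vector libraries, without overlap. EIF4G2 followed EIF1AX, at -0.23 ± 0.07 (adjusted p = 0.0847). In a fit of the 12 h libraries alone, 1 gene was called higher and 6 lower, where that fit called 2.73% of all genes higher and 6.06% lower.

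Of 42 other genes of the translation pathway, 41 were tested. They were listed as eIF2 kinases and phosphatase subunits, further initiation and poly-A factors, elongation factors, termination factors and the mTORC1 branch. Methionase at 24 h in DMSO gave 10 higher and 12 lower among them, where 18.1% of all genes were higher and 21.1% lower. The split was 7 and 14 after quantile normalization, and 10 and 9 with equal medians. With Vps34-IN1 methionase gave 0 higher and 14 lower, where 17.3% and 22.2% of all genes were, and quantile normalization gave 5 and 9. The drug gave 16 higher and 8 lower in vector cells, where 20.2% and 19.9% of all genes were. That direction turned with the scaling, at 6 and 11 after quantile normalization and 21 and 6 with equal medians. In methionase cells the drug gave 2 higher and 5 lower, where 2.95% and 4.98% of all genes were, and equal medians gave 4 and 3. PPP1R15A, the stress-induced subunit that directs dephosphorylation of eIF2, had 2007, 2437 and 1833 normalised reads in methionase and 769, 802 and 730.1 in vector libraries in DMSO. It rose by 1.35 ± 0.13 on the log2 scale (adjusted p = 4.36e-08) with no overlap. With Vps34-IN1 it had 2087, 3312 and 3688 in methionase and 2899, 3307 and 3232 in vector libraries, which overlapped. The drug alone raised it by 1.92 ± 0.13 in vector cells (adjusted p = 1.64e-10), and the interaction was -1.44 ± 0.19 (adjusted p = 1.06e-05).

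EIF2AK3 encodes PERK, the eIF2 kinase of the endoplasmic reticulum. It had 183, 198 and 266 normalised reads in methionase and 706, 627 and 673 in vector libraries with Vps34-IN1, and 218, 237 and 239.6 in methionase and 347, 354 and 318 in vector libraries in DMSO. It fell by a log2 difference of -1.36 ± 0.09 with the drug (adjusted p = 1.22e-10) and by a log2 difference of -0.43 ± 0.09 in DMSO (adjusted p = 0.000299), and no libraries overlapped in either setting. The drug raised it in vector cells by 0.83 (adjusted p = 6.66e-08), with an interaction of -0.92 ± 0.12 (adjusted p = 9.95e-06). EEF2K, the kinase that inhibits the elongation factor eEF2, had 549, 597 and 629.5 in methionase and 1321, 1373 and 1231 in vector libraries in DMSO. It fell by a log2 difference of -1.04 ± 0.08 (adjusted p = 4.15e-10), and in vector cells the drug lowered it by a log2 difference of -0.60 (adjusted p = 1.16e-06). RPS6KB1, the mTORC1 target S6 kinase, fell by a log2 difference of -0.53 with methionase (adjusted p = 1.51e-06) and -0.56 with the drug in vector cells (adjusted p = 7.32e-07). ETF1, the termination factor eRF1, fell by a log2 difference of -0.40 (adjusted p = 6.46e-06), and PDCD4, an inhibitor of eIF4A, by a log2 difference of -0.41 (adjusted p = 6.75e-05) with methionase in DMSO. At 12 h, BZW1, which mimics eIF5, was the 1 gene of this list that was called, at -0.26 ± 0.07 (adjusted p = 0.042). It was not called without methionase 12 h DMSO replicate 1 or 2 or 3 or vector 12 h DMSO replicate 1 or 2 or 3 (log2 difference -0.29 to -0.24, adjusted p = 0.076 to 0.173), with no filter on low values (adjusted p = 0.093), after quantile normalization (-0.18, adjusted p = 0.162) or with the replicate block (adjusted p = 0.053).

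The genes whose deposited values followed EIF5 most closely over the 18 libraries were CILK1 and HAUS6, with a Pearson r of 0.96 each, PPFIA1 with 0.95, and GTF2H1, SCRN3 and HELQ with 0.94 each. CILK1 encodes a kinase of the cilium and HAUS6 a subunit of the augmin complex of the spindle. These values describe the same libraries, groups and depths and carry no test. CILK1 averaged 232 ± 22.3 normalised reads in methionase and 369 ± 26.9 in vector cells at 24 h in DMSO (SD, n = 3 each). With Vps34-IN1 it averaged 266 ± 50.4 in methionase and 411 ± 17.8 in vector cells. HAUS6 averaged 2336 ± 184 in methionase and 3075 ± 131 in vector cells in DMSO, a smaller relative difference than that of EIF5. Among the initiation factor genes, EIF1AX followed EIF5 most closely, with r of 0.89, then EIF4EBP2 with 0.86 and EIF4G2 with 0.83, and EIF4A2 ran most opposite, with r of -0.71.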

How the data were processed

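The authors deposited 1 table of variance-stabilised log2 values for 37096 named genes in 18 libraries. Its lines were 37097, and the line naming no gene held at most 0.00216% of reads. The tools named, with no roles, are DESeq2, featureCounts, STAR 2.7.10b and limma, and the build is hg38, per the submitters' processing notes. The strand setting and annotation are not given in the sources used here, although per the labels' protocols the kit marked strand. Values were inverted to read counts and normalised reads, and 100% came within 0.01 of a whole read. Libraries held 18278586 to 20825232 reads and carried 1 batch label, so no batch could be compared. Genes whose mean lay at least 0.5 above the lowest value (5.4487) were tested, 17755 in all, with limma 3.58.1 in R 4.3.3 (trend, 1 mean per group, all 18 libraries). p-values were two-sided and adjusted by Benjamini-Hochberg within each of 9 comparisons. They rest on 1 moderated spread per gene, pooled within the groups of 3 over all 18 libraries, also those outside the comparison. The fit was tested on simulated data. Alternatives were no filter, a filter at 1, quantile normalization, equal medians, limma voom, a replicate block, a fit of only the groups compared, and leaving out each library. In each comparison up to 8 called genes in each direction with the largest differences were named, and other pathway genes by called examples with low adjusted p. The genes and lists were chosen with earlier results of these data known. Same-group libraries differed beyond sampling noise, with a chi-square per gene from 2.52 to 24.5. The lowest was between vector 24 h DMSO replicates 1 and 2, and the highest between methionase 24 h DMSO replicates 1 and 2. Figures used matplotlib 3.10.9 in Python 3.11.15.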

Additional observations from a re-analysis of the deposited data

Results flagged for a closer look

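The methionase difference at 24 h depended on Vps34-IN1 for 6 of the 42 genes in a direct test of that dependence, where 9.92% of all genes had a higher and 11.9% a lower called value. The difference with the drug minus that in DMSO was 0.41 for EIF5, 0.29 for EIF4A3 and 0.27 for EIF2B1. It was -0.51 for EIF4A2, -0.47 for EIF1B and -0.31 for EIF4E. The calls of EIF5, EIF4A3, EIF2B1 and EIF4E were each lost under several alternatives, given beside these genes in the results. The methionase difference depended on time for 6 genes, where 5.33% of all genes had a higher and 6.33% a lower called value. The difference at 24 h minus that at 12 h, in DMSO, was -1.07 for EIF5 and -0.37 for EIF1AX. It was 0.49 for EIF4A2, 0.45 for EIF1B, 0.36 for EIF3K and 0.31 for EIF3H. The EIF3H call was lost under several alternatives, and that of EIF1B without vector 12 h DMSO replicate 1. The reasons for these dependences were not tested.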

How the results depend on the processing

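No called direction among those named by rule reversed under any setting. Of 82 such calls, 12 were lost with no filter, 0 with a filter at 1, 9 after quantile normalization, 6 with equal medians, 1 with limma voom and 15 in fits of only the groups compared. Of 564 values with 1 library left out, 93 were no longer called. Fits of only the groups compared called 11 genes for methionase at 24 h in DMSO, where they called 16.8% of all genes higher and 20.2% lower. At 12 h they called 7, where 2.73% of all genes were higher and 6.06% lower. For the drug in methionase cells they called 1, where 0.625% were higher and 1.04% lower. The methionase by drug interaction had 3, where 7.64% were higher and 9.39% lower, and also 3 with no filter. At 12 h, quantile normalization and equal medians each called 1. With 1 library left out, the counts were 11 to 15 for methionase at 24 h in DMSO, 11 to 18 with Vps34-IN1, 0 to 0 at 12 h, 2 to 6 for the drug in methionase cells, 16 to 19 for the drug in vector cells, 3 to 7 for the drug interaction, 4 to 7 for the time interaction, 5 to 8 for time in vector cells and 19 to 22 for time in methionase cells. No share of all genes stands beside the counts with a library left out, so they describe only how far the counts moved. Fits with a library left out had smaller groups, and they and fits of only the groups compared had fewer residual degrees of freedom. The cause of these changes was not tested. Counting error weighs most on EIF5A2, the least abundant of the 42 genes per length.

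Deviations of libraries with the same replicate number correlated between -0.31 and 0.16, and most libraries correlated best with another number. With 3 libraries per group these values showed no strong pairing by number, but cannot settle whether the numbers paired cultures. With the replicate block, 15 genes were called for methionase at 24 h in DMSO, 16 with Vps34-IN1, 0 at 12 h, 20 for the drug in vector cells, 5 in methionase cells, 6 for each interaction, 9 for time in vector cells and 20 in methionase cells. The block ended 2 of the 82 calls, and among the other calls printed also those of EIF3G for methionase in DMSO, EIF3L for methionase with Vps34-IN1 and BZW1 at 12 h.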

Other observations

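Reads assigned to copies of initiation factor genes differed between the 12 h and 24 h libraries. At 24 h compared with 12 h, EIF2S3B had a log2 difference of -0.50 in methionase and -0.56 in vector cells, and EIF5AL1 -0.52 in methionase and -0.58 in vector cells, all 4 called at an adjusted p below 0.05 in limma. EIF2S3 itself had 0.19 in methionase cells, where it was called higher, and 0.07 in vector cells, where it was not called. The methionase call was lost without methionase 12 h DMSO replicate 2 or methionase 24 h DMSO replicate 1 (log2 difference 0.16 to 0.17, adjusted p = 0.0538 to 0.0841). It was also lost in a fit of only the groups compared (adjusted p = 0.0515) or after quantile normalization (-0.02, adjusted p = 0.747), where its sign turned. Reads shared between copies were not examined, so whether the copies themselves changed with time was not tested.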
